A study of Mus musculus with 12 samples.

Results

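Eda2r is a receptor of the tumour necrosis factor receptor family and a known target of p53, and it was examined here together with 9 other classical p53 target genes in the piriform cortex of Huntington's disease model mice. The 10 genes, Eda2r, Cdkn1a, Mdm2, Gadd45a, Bbc3, Ccng1, Zmat3, Bax, Pmaip1 and Sesn2, were taken from the count table by symbol. They are 10 of 48795 genes counted, and all 10 were among the 17725 genes abundant enough to be tested. Eda2r was selected on its measured difference between the genotypes in these libraries, and the other 9 as known p53 targets, so the differences between Q140 and WT in the 10 genes are given as a description without a test.

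The samples were bulk RNA from dissected piriform cortex, the olfactory area of the cortex, from 12 mice aged 12 months on a C57BL/6 background. The Q140 group was 6 mice with 1 copy of the Q140 knock-in allele (heterozygous), in which Htt, the gene of huntingtin, carries an expanded CAG repeat in every cell from conception. The WT group was 6 wild type mice, and each group had 3 males and 3 females. Every library is a separate animal, named here by genotype and number (Q140 1 to 6, WT 1 to 6).

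p53, encoded by Trp53, is a transcription factor that is held at a low level by the ubiquitin ligase Mdm2 and accumulates after DNA damage and other stress. It binds pairs of a palindromic half-site near its targets, which stop the cell cycle, repair DNA, limit growth or start apoptosis, and Mdm2 is itself a target, which closes a feedback loop. Eda2r binds the A2 form of ectodysplasin, made from the Eda gene, and signals through TRAF adaptors to NF-kB. In neurons p53 and its apoptotic targets are known mainly from injury and neurodegeneration.

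The promoters of 8 of the 10 genes were covered by 11 RefSeq windows of 300 bases on GRCm38.p6, each running from 250 bases before to 50 bases after a transcription start. Eda2r and Cdkn1a are shown because they are the genes whose levels differed most between groups of animals. Capitals mark matches to the p53 half-site consensus, which is its own reverse complement, so that 1 search covers both strands. No other motif was searched.
Eda2r, chrX:97377160-97377459, minus strand: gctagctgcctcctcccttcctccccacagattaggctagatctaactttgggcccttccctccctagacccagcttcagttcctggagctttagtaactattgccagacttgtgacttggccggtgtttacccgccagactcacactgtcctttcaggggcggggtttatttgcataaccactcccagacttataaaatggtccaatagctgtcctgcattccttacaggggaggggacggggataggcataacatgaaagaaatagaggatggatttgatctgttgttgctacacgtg
Cdkn1a, chr17:29090729-29091028, plus strand: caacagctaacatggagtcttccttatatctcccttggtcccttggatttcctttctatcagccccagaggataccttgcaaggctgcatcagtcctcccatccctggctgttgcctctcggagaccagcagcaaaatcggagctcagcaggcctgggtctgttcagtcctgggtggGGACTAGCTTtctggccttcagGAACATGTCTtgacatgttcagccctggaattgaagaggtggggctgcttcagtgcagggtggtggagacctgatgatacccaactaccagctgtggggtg

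The Cdkn1a window held 2 half-site matches, which began 73 and 51 bases before the start. One match each lay in the windows of Mdm2 (GAACTTGCCT, 186 bases before the start), Ccng1 (GGGCAAGCCT, 185 bases before), Bax (AGGCAAGCTT, 201 bases before) and Gadd45a (GGGCTAGCCC, 40 bases before). The windows of Eda2r, Bbc3 and Sesn2 and a second Cdkn1a window had no match, which says only that these letters are absent from those 300 bases. In all, 5 of the 11 windows held at least 1 match, and over all 32851 windows of the same length the share was 8.36%. The Eda2r window had a GC content of 50.3% and 5 CpG pairs, against medians of 52.7% and 7 over all windows.

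The libraries held 19587208 to 35198602 counted reads in the Q140 group and 24068582 to 33191541 in the WT group. Levels are given as CPM, counts scaled to a common library size after correction for composition, and comparisons between genes as FPKM, the authors' unit that also divides by gene length. A count of 0 allows up to 0.149 CPM in the shallowest library (3 counts, counting error only). Htt, the targeted gene, had 143 to 164 CPM in Q140 animals and 180 to 204 CPM in WT animals, a 0.774-fold level (edgeR adjusted p = 0.000203), so no library went against its genotype label. Of 8 excitatory neuron markers, 4 fell in Q140 and none rose, and their summed level was 4660 to 5130 CPM in Q140 and 5700 to 7480 CPM in WT (two-sided exact permutation p = 0.00216, the smallest that 6 against 6 allows, 0.0238 after adjustment over 11 marker lists). Of 10 oligodendrocyte markers 4 rose and none fell, with sums of 4140 to 5910 CPM in Q140 and 3660 to 5180 CPM in WT (exact permutation p = 0.143). Among 8 inhibitory neuron markers 3 fell and none rose. Their sums were 579 to 746 CPM in Q140 and 664 to 866 CPM in WT (exact permutation p = 0.143). Among 7 astrocyte, 8 microglia and 8 endothelial and pericyte markers 1 each rose and none fell. Among 8 striatal neuron markers 1 fell and none rose. The share called over all tested genes was 11.2%. No marker gene was at 0. In bulk tissue, fewer cells of a type and less RNA per cell cannot be told apart, and the part of these shifts in the results on the 10 genes was not tested unless a value is given.

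Eda2r (ENSMUSG00000034457, GRCm38 chromosome X, 97333840 to 97377216, minus strand) was about 3 times as abundant in Q140 as in WT. In Q140 males it had 1.15, 0.804 and 0.944 CPM, and in Q140 females 0.929, 0.825 and 1.06 CPM. In WT males it had 0.302, 0.335 and 0.206 CPM, and in WT females 0.276, 0.311 and 0.372 CPM. Every Q140 animal was above every WT animal, in both sexes. The means were 0.954 ± 0.136 CPM in Q140 and 0.300 ± 0.0563 CPM in WT (SD, n = 6 each). The log2 fold change was 1.65 (SE 0.193), or 3.14-fold.

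**Figure D1:**
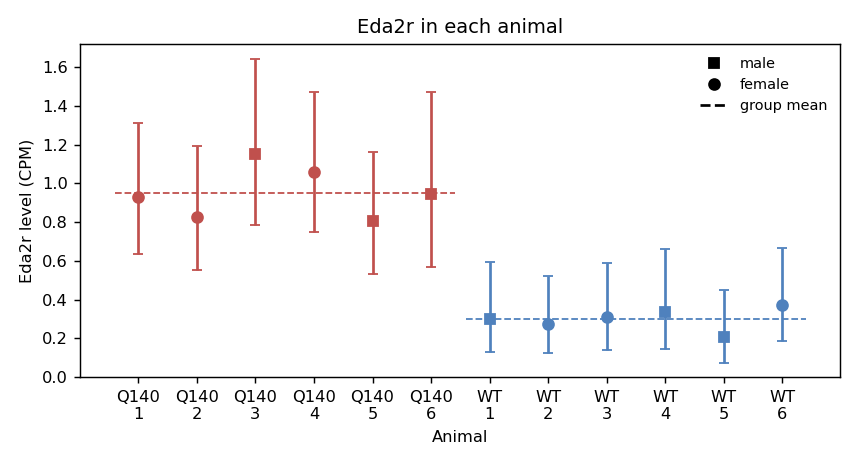
Eda2r level in CPM (y axis) in each of the 12 animals (x axis), Q140 in red and WT in blue, with squares for males, circles for females and bars for the 95% Poisson counting interval. The 6 Q140 animals sit between 0.804 and 1.15 CPM and the 6 WT animals between 0.206 and 0.372 CPM, with group means dashed.

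These levels rest on few reads. Eda2r had 19 to 37 reads per library in Q140, 176 in all, and 6 to 11 per library in WT, 51 in all. Its WT level of 0.0501 ± 0.00908 FPKM was below that of nearly all tested genes, with 0.209% of them lower, and in Q140 it was 0.164 ± 0.0243 FPKM. The gene passed the expression filter, which asks for about 0.332 CPM in 6 libraries, through the Q140 group: 6 Q140 animals reached that level and 2 WT animals did. The coefficient of variation between animals, 14.2% in Q140 and 18.7% in WT, was below the 18.9% and 34.5% that counting error alone gives at these read numbers. The Poisson intervals of the nearest animals overlapped, at 0.534 to 1.16 CPM for Q140 5 and 0.186 to 0.665 CPM for WT 6.

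The log2 fold change of Eda2r lay between 1.56 and 1.73 over 22 other fits of the counts, with other scalings, filters, tools and covariates or with each animal left out in turn. Within males it was 1.78 (SE 0.289) and within females 1.55 (SE 0.269). With the summed level of the oligodendrocyte markers as a covariate it was 1.63. Animals differ in the letters before their numbers in the labels, which are not explained there. This name prefix is RFQ in 4 males (Q140 3, 5 and 6 and WT 4), RFckQ in 1 Q140 and 4 WT animals, FMQ in 1 WT animal and absent in 2 Q140 animals, so it largely coincides with genotype. Without the 4 RFQ animals no Q140 male remains, so that fit nearly repeats the contrast within females, with a log2 fold change of 1.55 (SE 0.282). With the prefix as a covariate it was 1.71 (SE 0.295). Only the RFQ and RFckQ animals inform the genotype contrast of the prefix fit, with 1 WT animal among the RFQ and 1 Q140 animal among the RFckQ.

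The other 9 genes did not follow Eda2r. Their log2 fold changes between Q140 and WT ranged from -0.366 to 0.35, with both signs, and the levels of the genotypes overlapped in all 9. Of the 10 genes, 5 had a positive and 5 a negative log2 fold change, with a median of -0.0116, beside a median of 0.00446 over all tested genes. Over all tested genes 797 were called higher (4.5%) and 1185 lower (6.69%), together 1982 (11.2%), at an edgeR adjusted p of 0.05. The groups did not overlap, with Q140 higher, in 334 tested genes (1.88%), and with Q140 lower in 479 (2.7%). The choice of the genes used this comparison, so the calls of the 10 genes themselves are not given and nothing is read from these shares.

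**Figure D2:**
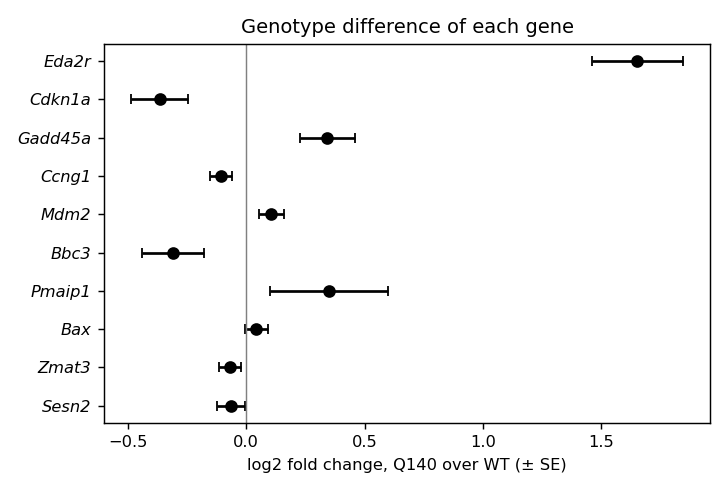
Log2 fold change of Q140 over WT (x axis, points, with bars for the standard error) for each of the 10 genes (y axis), from 6 Q140 and 6 WT animals. Eda2r is at 1.65 and the other 9 lie between -0.366 and 0.35.

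**Figure D3:**
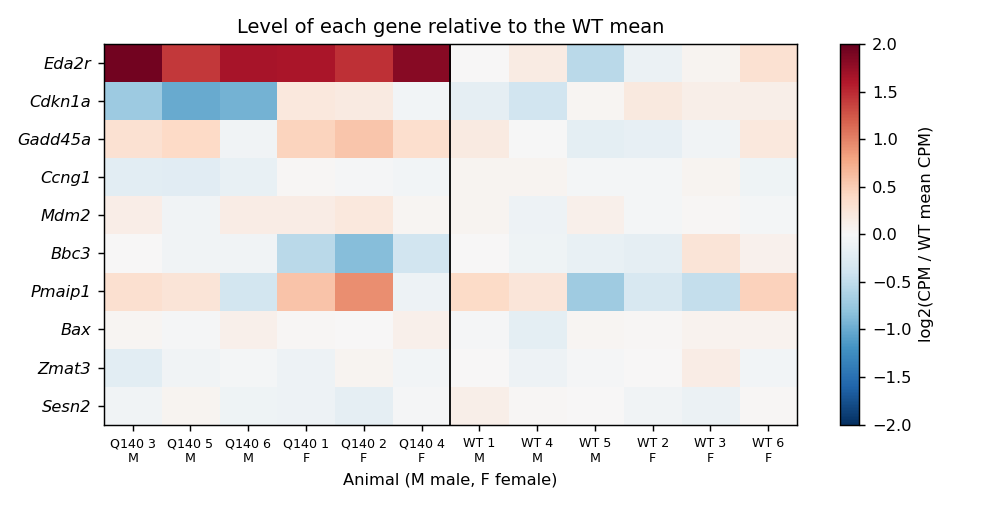
Level of each of the 10 genes (rows) in each animal (columns, Q140 left of the line and WT right, males before females in each), as log2 of CPM over the mean of the WT animals, in red where higher and blue where lower. Eda2r is red in all 6 Q140 animals, Cdkn1a is blue in the 3 Q140 males, and Bbc3 is blue in the 3 Q140 females.

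Among the genes that stop the cell cycle, Cdkn1a, which encodes the cyclin-dependent kinase inhibitor p21, had the largest coefficient of variation of the 10 in Q140, 38.1%, against 14.3% in WT. Its exons overlap an antisense gene, which was not analysed here. It had 19.7, 16.2 and 16.9 CPM in Q140 males, and 37.9, 36.9 and 31.5 CPM in Q140 females. It had 29.0, 25.2 and 33.7 CPM in WT males, and 37.5, 35.3 and 35.5 CPM in WT females. The 3 Q140 males were the lowest of the 12 animals, and the Q140 females, at 31.5 to 37.9 CPM, spanned the range of the WT females. The log2 fold change of Q140 over WT was -0.366 (SE 0.12) over all animals, -0.740 (SE 0.109) within males and -0.0273 (SE 0.104) within females.

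Gadd45a, a stress sensor that takes part in arrest and DNA repair, had 2.58, 3.51 and 3.98 CPM as lowest, median and highest values in Q140, against 2.37, 2.66 and 3.14 CPM in WT. Its log2 fold change was 0.342 (SE 0.117), with 5 of 6 Q140 animals above the WT mean and 1, Q140 6, below it. Its exons overlap those of the antisense gene E230016M11Rik, which had 1125 reads in all libraries together where Gadd45a had 1116. The strand setting of the counting is not given, so how reads from the shared stretch were assigned or left out is not known. Ccng1, a cyclin G that acts on Mdm2 through a phosphatase, was the most abundant of the 10 per length. It had 63.2, 68.5 and 74.9 CPM in Q140 and 69.7, 73.8 and 76.6 CPM in WT (lowest, median, highest), a log2 fold change of -0.105 (SE 0.0466). The 3 Q140 males, at 63.6, 63.2 and 66.3 CPM, were below every other animal.

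Mdm2, the inhibitor of p53, had 46.1, 53.7 and 56.6 CPM in Q140 and 45.5, 48.3 and 52.4 CPM in WT (lowest, median, highest). The log2 fold change was 0.105 (SE 0.0527), and 5 of 6 Q140 animals were above the WT mean.

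The apoptotic members had no common direction. Bbc3, which encodes the BH3-only protein PUMA, had 7.45, 7.01 and 7.05 CPM in Q140 males, and 5.08, 4.07 and 5.69 CPM in Q140 females. WT males had 7.44, 6.99 and 6.68 CPM of Bbc3, and WT females 6.50, 8.85 and 7.84 CPM. The 3 Q140 females were the lowest of the 12 animals, the reverse of the pattern of Cdkn1a, and the log2 fold change was 0.0277 (SE 0.139) within males, -0.642 (SE 0.138) within females and -0.309 (SE 0.13) over all. Pmaip1, which encodes the BH3-only protein NOXA, was low, with 15 to 64 reads per library in Q140 and 17 to 39 in WT. It had 0.745, 1.17 and 1.82 CPM in Q140 and 0.585, 0.948 and 1.32 CPM in WT (lowest, median, highest), a log2 fold change of 0.35 (SE 0.251). Bax, the pore-forming effector of the mitochondrial pathway, had the lowest coefficient of variation in Q140, 3.57%. It had 27.5, 28.5 and 30.0 CPM in Q140 and 24.4, 28.4 and 29.4 CPM in WT, a log2 fold change of 0.0422 (SE 0.0479). Its exons overlap those of Gm45808 on the same strand, which had 0 reads. How reads shared by that pair were counted was not examined.

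The remaining members act in growth control and RNA binding. Zmat3, an RNA-binding zinc finger protein, had 87.7, 97.6 and 106 CPM in Q140 and 95.3, 101 and 113 CPM in WT (lowest, median, highest), a log2 fold change of -0.0677 (SE 0.0458). Sesn2, a sestrin that restrains mTORC1, had 9.93, 10.7 and 11.8 CPM in Q140 and 10.4, 11.5 and 12.2 CPM in WT, a log2 fold change of -0.0653 (SE 0.0587) that turned to 0.00346 with the name prefix as a covariate. Both sets of values overlapped widely between the genotypes.

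Per length, the order of the mean levels in WT was Ccng1 at 20.6 FPKM, Bax at 17.4, Cdkn1a at 14.5, Mdm2 at 9.44, Zmat3 at 8.76, Bbc3 at 3.41, Sesn2 at 3.2, Gadd45a at 1.52, Pmaip1 at 0.355 and Eda2r at 0.0501 FPKM. The ranges of neighbours in this order overlapped for Bax and Cdkn1a, for Mdm2 and Zmat3 and for Bbc3 and Sesn2. The other neighbours were apart in all WT animals. Eda2r remained the lowest of the 10 in Q140, below the 0.461 ± 0.143 FPKM of Pmaip1.

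Sex was not used to choose the genes, so it was tested, although the tests were chosen with earlier results of these data known. Cdkn1a was lower in males, at -0.648 (SE 0.12) for the log2 of male over female (edgeR adjusted p = 0.027), and the other 9 members did not pass (log2 fold changes of -0.172 to 0.195, edgeR adjusted p of 0.499 to 0.97). Over all tested genes 35 were higher in males (0.197%) and 81 lower (0.457%), together 116 (0.654%). Mean Cdkn1a was 17.6 ± 1.84 CPM in males and 35.4 ± 3.47 CPM in females of the Q140 group, and 29.3 ± 4.29 CPM in males and 36.1 ± 1.2 CPM in females of the WT group (SD, n = 3 each). The difference was -1.01 (SE 0.108, edgeR adjusted p = 0.000715) within Q140 and -0.30 (SE 0.105, edgeR adjusted p = 0.423) within WT, on the log2 scale. Both contrasts were added after the data were seen. In WT the unadjusted edgeR p was 0.0136. The direct test of whether they differ, the interaction given below, had an edgeR adjusted p of 0.471. For Eda2r the male over female log2 fold change was -0.0409 (SE 0.187, edgeR adjusted p = 0.97).

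The call of Cdkn1a by sex lay near the threshold. With each animal left out the male over female log2 fold change ran from -0.740 to -0.575 and the edgeR adjusted p from 0.00522 to 0.0753, and the p exceeded 0.05 without Q140 1, 2, 3, 5 or 6 or WT 4. All 3 Q140 males and no Q140 female carry the RFQ prefix, so within Q140 sex and prefix cannot be told apart. Without the 4 RFQ animals the male over female log2 fold change of Cdkn1a was -0.20 (SE 0.0935, edgeR adjusted p = 0.702). With the prefix as a covariate it was -0.266 (SE 0.107, edgeR adjusted p = 0.999). The fit without the RFQ animals holds no Q140 male, so its sex contrast rests on WT animals. Of the prefixes only RFckQ holds both sexes, and its males are all WT. Neither fit therefore tests the difference within Q140. In WT, the RFQ male had 25.2 CPM and the other males 29.0 and 33.7 CPM. Without the RFQ animals the genotype contrast rests on the females, so it nearly repeats the values within females. In that fit the log2 fold change of Q140 over WT was -0.0266 for Cdkn1a, -0.6403 for Bbc3, 0.00396 for Ccng1 and -0.0105 for Bax, so the last 2 turned sign. Those of the other 6 kept theirs, with 1.55 for Eda2r, 0.577 for Pmaip1 and 0.446 for Gadd45a.

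**Figure D4:**
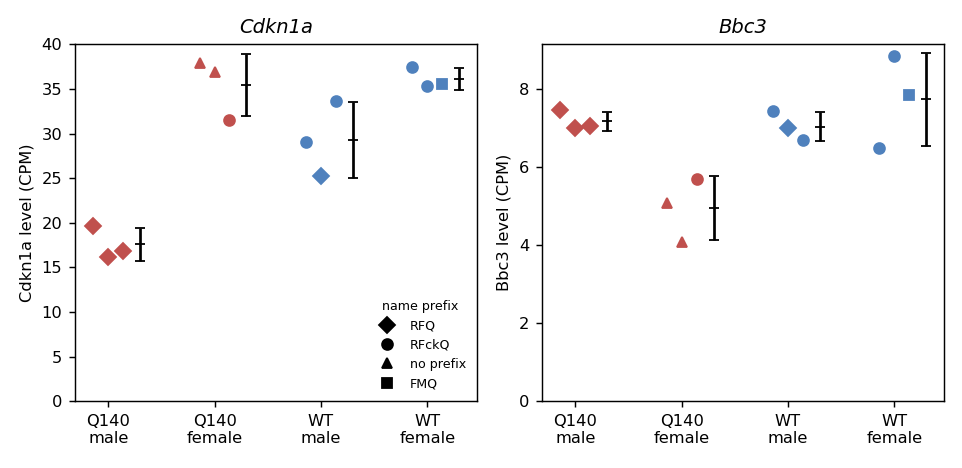
Levels in CPM (y axes) of Cdkn1a (left) and Bbc3 (right) in the 3 animals of each genotype and sex (x axis), Q140 in red and WT in blue, with symbols for the name prefix and black bars for mean ± SD. Cdkn1a lies at 16.2 to 19.7 CPM in Q140 males, all with the RFQ prefix, and Bbc3 at 4.07 to 5.69 CPM in Q140 females.

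Whether the Q140 effect differed between males and females was tested as an interaction. For Cdkn1a the male minus female difference of the log2 fold changes was -0.712 (SE 0.15), for Bbc3 0.669 (SE 0.196) and for Ccng1 -0.218 (SE 0.0734), each with an edgeR adjusted p of 0.471. The other 7 had higher adjusted p-values, with 0.894 for Eda2r at a difference of 0.228 (SE 0.406). By edgeR 0 of 17725 genes (0%) passed for this difference and 1633 had an unadjusted p below 0.05. DESeq2 called 23 genes, Cdkn1a among them (DESeq2 adjusted p = 0.0195), and limma voom called 1 gene, with an adjusted p of 0.106 for Cdkn1a. The difference for Cdkn1a is therefore called by 1 of these 3 tools.

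Beyond additive effects of genotype and sex, the 10 genes varied in no common direction between animals. After removal of genotype and sex means, the 45 pairs had correlations across the 12 animals from -0.749, for Cdkn1a and Bbc3, to 0.886, for Gadd45a and Pmaip1, with a median of -0.0604 and 20 of 45 positive. All pairs share the libraries, and the values are a description. The low values of Cdkn1a in Q140 males and of Bbc3 in Q140 females stay in these residuals and enter the correlation of that pair. The genes whose residual pattern was most like that of Eda2r, of 15487 with at least 1 CPM on average, included Crip2 (r = 0.953), Chadl (0.897), Col6a1 (0.896) and Cspg5 (0.894). The log2 fold changes of these 4 between Q140 and WT were all negative, from -0.713 for Col6a1 to -0.0558 for Cspg5. These 4 were picked from the top of 15487 correlations over 12 animals. The spread of Eda2r within each genotype was below that of counting error alone, so no shared pattern is read from them. For Cdkn1a the most alike were Adipor2 (r = 0.973), Coa7 (0.961), Fat3 (0.956), Gch1 (0.954) and 5330417C22Rik (0.952). The low values of the Q140 males stay in the Cdkn1a pattern used here.

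Neither p53 nor its regulators passed the test by edgeR. Of 20 tested genes of this group 0 rose and 0 fell by edgeR, beside 11.2% called of all tested genes. An unadjusted edgeR p below 0.05 was found for 3 of the 20, beside 4728 of all 17725 tested genes. Trp53 itself had 20.5 to 26.2 CPM in Q140 and 18.0 to 23.5 CPM in WT, a difference of 0.15 ± 0.0691 on the log2 scale (SE; edgeR adjusted p = 0.17). Mdm4, the partner of Mdm2 in holding p53 inactive, had 109 to 126 CPM in Q140 and 112 to 123 CPM in WT, a difference of -0.01 ± 0.0409 on the log2 scale (SE; edgeR adjusted p = 0.881) that turned positive with total counts as the only scaling. The smallest adjusted p was that of Chek2, a checkpoint kinase that phosphorylates p53 (log2 fold change 0.68, SE 0.214, edgeR adjusted p = 0.0552). Its level was low, at 0.969 to 1.89 CPM in Q140 and 0.521 to 1.02 CPM in WT. Chek2 passed in 6 of 24 other fits, with adjusted p-values of 0.0359 with total counts as the only scaling, 0.048 by DESeq2, 0.0413 without WT 1, 0.0431 with the meningeal marker sum as a covariate, and 0.0379 and 0.0441 by limma on log2 FPKM.

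Other p53 targets were counted in 4 lists by role, with 52 of 54 genes tested, of which 3 rose, 5 fell and 44 did not pass (15.4% called, beside 11.2% of all tested genes). Their median log2 fold change was 0.0246. Of 11 arrest genes 3 fell and 0 rose, with a list median of -0.203. Plk2, a polo-like kinase of neurons that is induced by activity as well as by p53, had 169 to 197 CPM in Q140 and 222 to 252 CPM in WT, a difference of -0.38 ± 0.0452 on the log2 scale (SE; edgeR adjusted p = 0.000251). Btg2, an antiproliferative factor that is also an immediate early gene, fell by 0.49 on the log2 scale (SE 0.104, edgeR adjusted p = 0.00838), and Sertad1, a regulator of cyclin-dependent kinase 4, by 0.37 (SE 0.0835, edgeR adjusted p = 0.0119).

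Of 14 apoptosis genes 0 passed by edgeR, with a median of -0.0175, and the smallest adjusted p was 0.0999, for Cdip1. An unadjusted edgeR p below 0.05 was found for 2 of the 14, beside 4728 of all 17725 tested genes. Cdip1 passed with total counts as the only scaling (edgeR adjusted p = 0.0139), by DESeq2 (0.0261) and by limma on log2 FPKM (0.00867 and 0.00814). Of 7 repair genes 1 rose, Pcna, the sliding clamp of DNA polymerase (log2 fold change 0.18, SE 0.0521, edgeR adjusted p = 0.0433). Of 20 genes of metabolism and other roles 2 rose, the fucosidase Fuca1 (0.23, SE 0.0636, edgeR adjusted p = 0.0311) and the adhesion protein Ninj1 (0.20, SE 0.057, edgeR adjusted p = 0.0409). In the same list 2 fell, Fbxw7, a substrate receptor of a ubiquitin ligase (-0.37, SE 0.0547, edgeR adjusted p = 0.000964), and Sesn1, the sestrin relative of Sesn2 (-0.16, SE 0.0389, edgeR adjusted p = 0.0185). Plk2, Btg2, Sertad1 and Fbxw7 passed with each animal left out in turn, and Btg2 did not pass without the sex term (edgeR adjusted p = 0.199). The call of Sesn1 was lost without WT 3 (adjusted p = 0.0502). Pcna passed in 3 of 12 such fits (without Q140 1, Q140 5 or WT 4), Fuca1 in 5 (without Q140 1, Q140 5, WT 2, WT 3 or WT 4) and Ninj1 in 2 (without Q140 5 or WT 4). With the name prefix as a covariate 1 of the 8 calls was made, that of Plk2, without the RFQ animals 4 genes were called, and with oligodendrocyte or meningeal markers as a covariate 2 or 5.

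**Figure D5:**
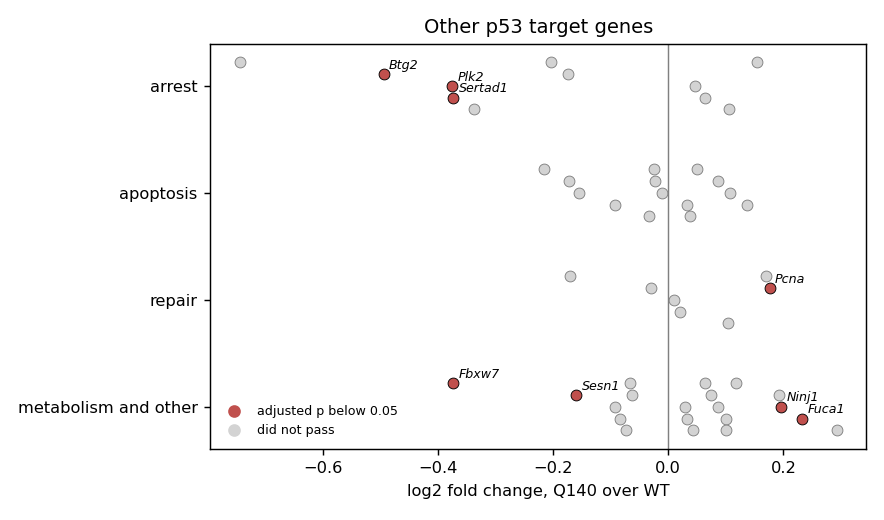
Log2 fold change of Q140 over WT (x axis) for the 52 tested genes of the 4 lists of other p53 targets (y axis; the vertical offset within a list only separates points), in red and with names for the 8 with an edgeR adjusted p below 0.05. The 3 named arrest genes lie to the left of 0, and no apoptosis gene passed.

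Btg2, chosen for this after its values were seen, differed by sex in the direction opposite to Cdkn1a. It had 48.3, 42.9 and 39.5 CPM in Q140 males and 19.8, 20.7 and 27.1 CPM in Q140 females. WT males had 49.4 to 53.5 CPM, and WT females 42.3, 38.1 and 33.0 CPM. The log2 fold change of male over female was 0.70 (SE 0.104, edgeR adjusted p = 0.00626), and it passed with each animal left out. Without the RFQ animals, where the sex contrast rests on WT animals, Btg2 did not pass (0.4469, edgeR adjusted p = 0.702). It was the 1 of the 52 other targets that passed by sex (1.92%, beside 0.654% of all tested genes).

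Of the ligand, relatives and signalling partners of Eda2r, 16 of 18 were tested. Among them 1 rose and 2 fell (18.8% called, beside 11.2% of all tested genes), 13 did not pass, and the median was 0.0404. The ligand gene Eda had 5.36 to 6.23 CPM in Q140 and 4.85 to 6.74 CPM in WT, a difference of -0.03 ± 0.0866 on the log2 scale (SE; edgeR adjusted p = 0.85) that turned positive with total counts as the only scaling. Edar, the receptor of the A1 form of ectodysplasin, was under the filter, with 3 to 8 reads per library in Q140 and 1 to 9 in WT, means of 0.179 ± 0.0559 and 0.174 ± 0.122 CPM.

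Relb, a subunit of the non-canonical NF-kB pathway, had 5.28 to 6.59 CPM in Q140 and 3.66 to 5.02 CPM in WT without overlap, a difference of 0.48 ± 0.107 on the log2 scale (SE; edgeR adjusted p = 0.0119). Traf1, a TRAF adaptor that NF-kB is known to induce, had 0.689 to 1.05 CPM in Q140 and 0.964 to 1.66 CPM in WT, a difference of -0.70 ± 0.164 on the log2 scale (SE; edgeR adjusted p = 0.015). Map3k14, which encodes the kinase NIK at the head of that pathway, had 7.0 to 10.2 CPM in Q140 and 7.66 to 15.2 CPM in WT, a difference of -0.54 ± 0.14 on the log2 scale (SE; edgeR adjusted p = 0.0252). Relb and Traf1 passed with each animal left out, and Map3k14 did not without Q140 1, 2 or 3 or WT 1, 2 or 3. None of the 3 passed with the name prefix as a covariate, where only the RFQ and RFckQ animals inform the genotype contrast. In that fit Relb had a log2 fold change of 0.516 (edgeR adjusted p = 0.11), Traf1 -0.966 (edgeR adjusted p = 0.0967) and Map3k14 -0.182 (edgeR adjusted p = 0.628).

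Around Eda2r on chromosome X, 15 annotated genes lie within 1 Mb, of which 3 were expressed enough to be tested and 0 of the 3 passed by edgeR. They included Heph, a copper oxidase of iron export (log2 fold change 0.29, SE 0.0963, edgeR adjusted p = 0.0716) and the orphan receptor Gpr165 (0.12, SE 0.093, edgeR adjusted p = 0.444). The 1 with an unadjusted p below 0.05 was Heph, beside 4728 of all 17725 tested genes at that level. Heph passed with total counts as the only scaling (edgeR adjusted p = 0.0344) and by limma voom (adjusted p = 0.0397). It also passed in the edgeR fits without WT 4 (0.0338), without Q140 5 (0.0305) and without the RFQ animals (0.0473). The other 12 had at most 6 reads in any library.

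Close relatives of the 10 genes were read as a further list, in which 1 of 10 tested rose and 1 fell. The other 8 did not pass (20% called, beside 11.2% of all tested genes), and the median was -0.0128. Cdkn1b, which encodes p27, a relative of p21, rose (0.13, SE 0.0387, edgeR adjusted p = 0.0437), and Zmat4, a relative of Zmat3, fell (-0.32, SE 0.0837, edgeR adjusted p = 0.0248). Gadd45b and Gadd45g had log2 fold changes of -0.0701 and 0.00635. Of 12 others of the BCL2 family 2 fell (16.7% called, beside the same 11.2%), 10 did not pass, and the median was 0.0224. Hrk, a BH3-only protein of neurons, had 49.7 to 79.9 CPM in Q140 and 82.3 to 127 CPM in WT without overlap (log2 fold change -0.67, SE 0.125, edgeR adjusted p = 0.00416), and Bnip3, a mitochondrial BH3 protein induced by hypoxia, fell by 0.21 on the log2 scale (SE 0.0546, edgeR adjusted p = 0.028). Hrk passed with each animal left out, but not with the name prefix as a covariate (-0.683, edgeR adjusted p = 0.0864), while Cdkn1b kept its call in 3 of 12 such fits (without WT 4, WT 5 or Q140 5), Zmat4 in 6 (not without Q140 1, Q140 3, WT 1, WT 2, WT 3 or WT 5) and Bnip3 in 5 (not without Q140 1, Q140 2, Q140 3, WT 1, WT 2, WT 3 or WT 5).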

How the data were processed

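The deposited count table holds whole reads per gene for 48795 genes, and the authors' FPKM table was made from the same counts. Tools listed in the submitters' processing notes are HTSeq 0.12.3, SAMtools 1.10 and STAR 2.7.5c, and the builds are mm10 and GRCm38. Per the labels' protocols the libraries were TruSeq stranded, while the strand setting of the counting is not given in the sources used here. The quasi-likelihood test of edgeR 4.0.16 was run under R 4.3.3 on the counts ( TMM, default filter by genotype, minimum count 10) for genotype with sex as a covariate, for sex with genotype as a covariate, and for the interaction in a model of the 4 groups. P-values are two-sided with Benjamini-Hochberg adjustment over all 17725 tested genes, and 0.05 was the threshold. CPM uses TMM-scaled library sizes. Intervals at 95% and floors cover counting error only.

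Alternatives were other size factors and filters, DESeq2 1.42.0, limma 3.58.1 (voom, or log2 FPKM plus 0.1 or 1), omission of each animal, no sex term, and the name prefix or marker sums as covariates. The prefix covariate for sex, the fits without the RFQ animals, the block on the number in the animal names and the sex contrasts within each genotype were added after seeing the data. Positions came from GENCODE M21 on GRCm38, and promoters from RefSeq. The members, the gene lists and the tests were chosen with earlier results of these data known. Named were all members, Htt, Trp53, Mdm4, Eda, Edar, up to 4 passing genes per list by smallest p, or else the 1 with the smallest, the tested neighbours of Eda2r and the 5 genes most like Eda2r and Cdkn1a, of which some are not reported here. The fits were checked on simulated counts.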

Additional observations from a re-analysis of the deposited data

How the results depend on the processing

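Of 1299 values of 56 results under the alternatives, 1056 kept their direction and their side of the threshold or moved little, 156 lost a call, 26 gained one, 46 moved and 15 turned. Genes differing between Q140 and WT numbered 1982, against 134 with the name prefix as a covariate, 537 and 1012 with the oligodendrocyte and meningeal marker sums as covariates, and 1139 to 2504 with each animal left out (1139 without Q140 2, 1314 without Q140 3, 1197 without WT 1 and 1231 without WT 3). With the prefix as a covariate only the RFQ and RFckQ animals inform the genotype contrast. By sex there were 116 genes, against 220 without the filter, 345 by DESeq2 and 45 to 146 with each animal left out. The count was 7 with the prefix and 1 without the RFQ animals, where the sex contrast rests on WT animals. For the interaction the count was 0, against 23 by DESeq2, 1 by limma voom and 0 to 4 with each animal left out. The causes were not tested. As summed FPKM, marker sums (log2, Q140 minus WT) of inhibitory neurons (-0.352), microglia (0.212) and endothelial cells and pericytes (0.189) had exact permutation p-values of 0.00433, 0.0173 and 0.026, not adjusted over the 11 lists. With each animal left out, oligodendrocyte sums ran from 0.0999 to 0.238, microglial from 0.111 to 0.179, meningeal from 0.316 to 1.02, red blood cell from 0.112 to 0.258 and choroid plexus from -0.00743 (without Q140 2) to 0.224. Mdm4 turned to 0.0343 with total counts, 0.0323 and 0.029 on log2 FPKM, 0.0211 without the RFQ animals, and 0.00351 and 0.00408 without Q140 4 and Q140 6, with a range of -0.0432 to 0.00408 over the animals left out. Eda turned to 0.0135 with total counts, 0.0143 and 0.00614 on log2 FPKM and 0.0173 without WT 4 (range -0.0855 to 0.0173). Eda2r by sex turned to 0.00707, 0.0278, 0.0237 and 0.00453 without Q140 4, Q140 5, WT 5 and WT 6 (range -0.148 to 0.0278). Eda2r had 0.815 on log2(FPKM + 0.1) and 0.149 on log2(FPKM + 1), since both pseudocounts are large beside its level, and it was not in the fit restricted to a mean of at least 1 CPM. In the labels Q140 4 shares a number with WT 3, Q140 3 and 5 share one with WT 4, and WT 1 shares one with WT 5, and the labels do not say what it marks. Deviations from the means of the 4 groups of genotype and sex correlated at -0.203 to 0.106 in the 3 such pairs across genotypes. In the 33 other pairs across genotypes they correlated at -0.251 to 0.34. With 3 pairs these values cannot show whether animals that share a number are alike. Pairs within a genotype were not compared. The animals were not treated as paired in the main fits. With this number as a block in place of sex, in which 5 animals inform the genotype contrast and 3 residual degrees of freedom remain, 1 gene was called, and Plk2 had an adjusted p of 0.192. In that block fit the log2 fold change was 1.638 for Eda2r, -0.2043 for Ccng1, 0.125 for Bax and 0.02825 for Sesn2, which turned. Depth limits Eda2r, Edar, Traf1, Pmaip1 and Chek2 most, with under 70 reads in every library.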

Other observations

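Several of the 10 genes, among them Pmaip1, Bbc3 and Sesn2, are also known targets of ATF4 and CHOP in the integrated stress response, so other targets of these factors were read as a list. Of 16 tested, 2 rose and 0 fell (12.5% called, beside 11.2% of all tested genes). The other 14 did not pass, and the median log2 fold change was 0.0527. Psat1, an enzyme of serine synthesis, had 121 to 166 CPM in Q140 and 97.4 to 114 CPM in WT without overlap (log2 fold change 0.49, SE 0.0698, edgeR adjusted p = 0.000775). Phgdh, the entry enzyme of the same pathway, rose by 0.25 (SE 0.0682, edgeR adjusted p = 0.0327), a call lost without Q140 1, 2 or 3 or WT 1, 2, 3 or 5. Psat1 did not pass with the name prefix as a covariate (0.381, edgeR adjusted p = 0.0819). The transcription factors of the list had log2 fold changes of 0.00822 for Atf4, 0.00486 for Ddit3, which encodes CHOP, -0.414 for Atf3 and 0.229 for Atf5 (edgeR adjusted p of 0.954, 0.979, 0.330 and 0.060). Chac1 had -0.0241 and Trib3 -0.44.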
